A study of Sus scrofa with 6 samples.

Results

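The inflammasome and pyroptosis genes were taken as the rows of the deposited expression table that carry 1 of 10 gene names: the sensors NLRP3, NLRC4 and NAIP, the adapter PYCARD, the protease CASP1, the pore former GSDMD, the interleukin-1 family ligands IL1A, IL18 and IL1RN, and TXNIP. Of these, 7 names were found among 30477 rows. No row carried the name NLRC4, NAIP or IL1RN, and these 3 genes were not analysed here. Abdominal aorta RNA had been sequenced in 6 male Wuzhishan miniature pigs, 3 kept on normal chow (NC) and 3 on a diet rich in fat, cholesterol and fructose (HFCF), for 6 months in both groups. The labels give an age of 3 to 4 months for all 6 pigs, while the methods of the study give an older age at purchase. Each library was read as 1 pig. The labels do not say so outright, so p-values measure the spread between these libraries. Values are FPKM, fragments scaled to transcript length and library size, as the authors deposited them. Differences between the groups are given with their standard error (SE) as log2 fold changes of FPKM + 0.1, HFCF minus NC, which understate the change of genes near 0.1 FPKM.

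An inflammasome is a cytosolic complex in which a sensor such as NLRP3 gathers the adapter ASC, the product of PYCARD, and through it the protease caspase-1. Caspase-1 matures interleukin-1 beta and interleukin-18 and cuts gasdermin D, whose free N-terminal part opens pores in the plasma membrane and can end in the lytic cell death called pyroptosis. In atherosclerotic arteries the NLRP3 complex is known mainly from macrophages, where cholesterol crystals are a recognised trigger. RNA levels show how much of each transcript was present and carry no information on cleavage or assembly.

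The tissue had the make-up of an artery wall, and it differed between the groups. Contractile smooth muscle markers summed to 15970 to 22790 FPKM in NC pigs and 8037 to 12930 FPKM in HFCF pigs, and 6 of 9 tested were called lower. The 14 macrophage markers summed to 112.5 to 121.1 FPKM in NC pigs and 1070 to 2732 FPKM in HFCF pigs. Of these, 13 were called higher, and none was listed at 0 in an NC pig. Markers of T and cytotoxic lymphocytes summed to 2.15 to 2.94 FPKM in NC pigs and 31.5 to 72.3 FPKM in HFCF pigs. NKG7 alone made up 58.9 of 72.3, 28.3 of 31.5 and 29.0 of 31.9 FPKM in the HFCF pigs. CD2 and CD8A were called higher with NKG7, while CD3D, CD3E, CD3G, CD4 and PRF1 were not called. The calls were 3 higher of 8 for T and cytotoxic lymphocyte markers, 1 of 6 for B and plasma cell markers, 2 of 8 for neutrophil markers, 1 of 7 for fibroblast markers, 1 of 3 for epithelial markers, and 0 of 8, 0 of 7 and 0 of 4 for endothelial, adipocyte and red blood cell markers. Of all tested genes, 22.8% were called higher and 6.16% lower. Adipocyte markers summed to 192.4, 301.3 and 37.97 FPKM in the NC pigs. The first HFCF pig stood apart in blood genes. Its red blood cell markers summed to 2906 FPKM, where the others of its group had 86.8 and 95.7 FPKM and NC pigs had 22.1 to 180.3 FPKM. Its neutrophil markers summed to 116.9 FPKM, beside 14.3 and 7.24 FPKM in its group and 1.97 to 3.42 FPKM in NC pigs. CSF3R alone made up 55.9 of 116.9, 8.38 of 14.3 and 4.55 of 7.24 FPKM in the HFCF pigs. ELANE and PRTN3 were not highest in the first HFCF pig (0.714 and 0.127 FPKM, beside 1.71 and 0.1715 FPKM in the second), while the other neutrophil rows were. In bulk tissue, more cells of a type and more RNA per cell cannot be told apart.

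Between the diets, 5 of the 7 members were called higher in the HFCF group at an adjusted p under 0.05 (limma, Benjamini-Hochberg over 15384 genes), against 22.8% of all tested genes. These were PYCARD, CASP1, NLRP3, IL18 and GSDMD. None of the 7 was called lower, at an adjusted or an unadjusted p under 0.05, against 6.16% of all tested genes at the adjusted threshold. IL1A and TXNIP were not called. All 7 passed the filter of a mean of 0.1 FPKM, and their median log2 fold change was 2.94, beside 0.32 for all tested genes. IL18, the member at that median, and IL1A had NC means under 0.1 FPKM (0.0671 and 0.0751). They passed the filter only through the HFCF pigs and could hardly have been called lower. In the same 5 genes every HFCF pig lay above every NC pig, which was so for 36.1% of all tested genes. In none did every HFCF pig lie below every NC pig, which was so for 12.1%. By the thresholds of the study, an unadjusted p under 0.05 and a ratio of means over 2 or under 0.5, 4 members were higher and 0 lower, beside 20.7% and 4.82% of all tested genes. GSDMD was the one lost.

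**Figure D1:**
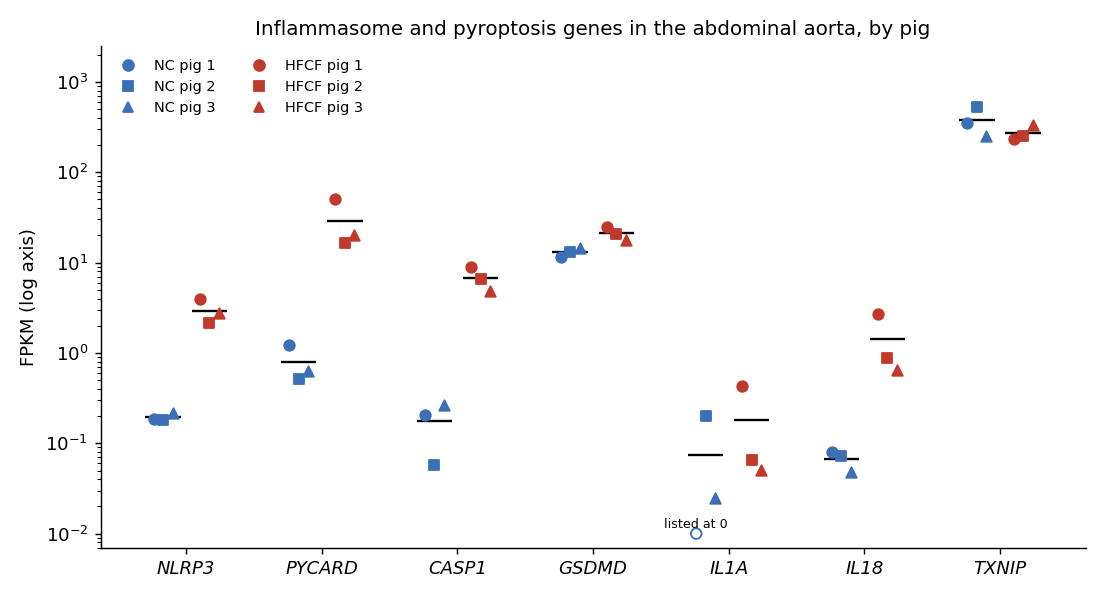
FPKM of the 7 members in each pig on a log axis, NC in blue and HFCF in red, with a marker shape for each replicate number and a black bar at the group mean (n = 3 pigs). NLRP3, PYCARD, CASP1, IL18 and GSDMD do not overlap between the groups, while IL1A (at 0 in the first NC pig, open symbol) and TXNIP do.

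NLRP3 (ENSSSCG00000013940), the sensor that responds to potassium loss and crystals, had 0.185, 0.182 and 0.214 FPKM in the 3 NC pigs and 3.92, 2.13 and 2.79 FPKM in the 3 HFCF pigs. The NC pigs were close together, and the lowest HFCF pig was 9.96 times the highest NC pig. The means were 0.194 ± 0.018 and 2.95 ± 0.91 FPKM (SD, n = 3 each), or 3.34 on the log2 scale (SE 0.30, limma adjusted p = 0.00109). Only 1.63% of the tested genes had a larger log2 fold change.

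PYCARD (ENSSSCG00000040811), whose product ASC bridges sensor and caspase, had 1.24, 0.519 and 0.630 FPKM in the NC pigs and 51.0, 16.5 and 20.1 FPKM in the HFCF pigs. The groups were far apart, and the first pig was the highest in each. Its mean was 36.7 times as high in the HFCF group, and the log2 fold change of 4.93 (SE 0.48, limma adjusted p = 0.00127) was exceeded by 0.254% of the tested genes.

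CASP1 (ENSSSCG00000028711), the protease of the complex, had 0.207, 0.0576 and 0.263 FPKM in the NC pigs and 8.97, 6.53 and 4.79 FPKM in the HFCF pigs. The means of 0.176 ± 0.106 and 6.76 ± 2.10 FPKM (SD, n = 3 each) had a ratio of 38.4. The log2 fold change was 4.68 (SE 0.40, limma adjusted p = 0.000903). It lay between 2.69 and 5.37 with pseudocounts of 1 and 0.01, as its NC values are close to the pseudocount.

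The substrates of caspase-1 differed from each other in starting level and in size of change. GSDMD (ENSSSCG00000006955) was already present in chow-fed aorta, at 11.5, 13 and 14.3 FPKM, and had 24.7, 20.6 and 18.0 FPKM in the HFCF pigs. The groups did not overlap, but the lowest HFCF pig was only 1.25 times the highest NC pig. It rose by 0.69 on the log2 scale (SE 0.17, limma adjusted p = 0.0242), against a median of 0.32 over all tested genes. This call was lost in 8 of 15 alternatives, with adjusted p from 0.0215 to 0.156 (limma), among them median-ratio scaling (log2 fold change 0.34), quantile normalization (0.52) and rescaling to TPM (0.43). It was also lost when any one of the first or second NC pigs or the first or second HFCF pigs was left out.

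IL18 (ENSSSCG00000015037), a cytokine made as an inactive precursor, had 0.0809, 0.0724 and 0.0478 FPKM in the NC pigs and 2.71, 0.877 and 0.651 FPKM in the HFCF pigs. It was thus barely detected on chow, and the first HFCF pig had 3.55 times the mean of the other HFCF pigs. The log2 fold change was 2.94 (SE 0.53, limma adjusted p = 0.00831). It was 2.36 without the first HFCF pig (limma adjusted p = 0.00913), and the adjusted p ranged from 0.00614 to 0.0351 over 14 alternatives.

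IL1A (ENSSSCG00000008090), an alarmin that acts at the same receptor as interleukin-1 beta and needs no caspase-1, was near the limit of detection. The first NC pig was listed at 0 and the others had 0.200 and 0.0248 FPKM, against 0.426, 0.0651 and 0.0504 FPKM in the HFCF pigs. The groups overlapped, and the log2 fold change was 0.60 (SE 0.67, limma adjusted p = 0.531). Without the first HFCF pig its mean fell under the filter and it was not tested.

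TXNIP (ENSSSCG00000031262) binds and inhibits thioredoxin, is induced by glucose and has been described as a partner of NLRP3. It had 347.7, 524.0 and 251.1 FPKM in the NC pigs and 232.2, 252.3 and 329.5 FPKM in the HFCF pigs. The groups overlapped, and the log2 fold change was -0.42 (SE 0.29, limma adjusted p = 0.314). The difference stayed negative in all 15 alternatives (adjusted p from 0.094 to 0.708, limma), with -0.77, -0.67 and -0.68 after median-ratio scaling, quantile normalization and rescaling to TPM.

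FPKM is per exon length, so levels can be set side by side between genes. In chow-fed aorta the order of mean FPKM was TXNIP (374.3), GSDMD (12.96), PYCARD (0.796), NLRP3 (0.194), CASP1 (0.176), IL1A (0.0751) and IL18 (0.0671), and from NLRP3 down each gene overlapped the next. In the HFCF group it was TXNIP (271.3), PYCARD (29.2), GSDMD (21.1), CASP1 (6.76), NLRP3 (2.95), IL18 (1.41) and IL1A (0.181), with PYCARD and GSDMD overlapping and NLRP3 and IL18 overlapping. PYCARD was thus far under GSDMD on chow and in the same range on the HFCF diet. CASP1 stood above NLRP3 without overlap in the HFCF pigs only.

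Since the macrophage markers were higher in the same pigs, each member was also set against them, as FPKM per 1000 FPKM of the 14 summed markers. On this scale NLRP3 stood at 1.60, 1.62 and 1.77 on chow and 1.44, 1.896 and 2.61 on the HFCF diet, so the groups overlapped. IL18 overlapped as well, with 0.699, 0.644 and 0.395 against 0.992, 0.779 and 0.608, and so did IL1A. CASP1 stood at 1.79, 0.512 and 2.17 on chow and 3.28, 5.80 and 4.48 on the HFCF diet, and PYCARD at 10.7, 4.61 and 5.20 against 18.7, 14.6 and 18.8. Both were higher in every HFCF pig, with ratios of the means of 3.03 and 2.54, although the difference of CASP1 turned negative on the mean log2 scale described next with a pseudocount of 1. In exact two-sided permutation tests on this scale, added after the values were seen, p was 0.1 for PYCARD, CASP1, GSDMD and TXNIP, the smallest that 3 pigs against 3 allow. It was 0.6 for NLRP3, 0.5 for IL1A and 0.3 for IL18. GSDMD was lower on this scale, from 99.7, 115.6 and 118.4 to 9.02, 18.3 and 16.8 (a ratio of NC to HFCF means of 7.57). TXNIP went from 2074 to 4659 down to 85.0 to 307.8. The summed markers had an HFCF to NC ratio of means of 14.1, beside FPKM ratios of 1.63 for GSDMD and 0.725 for TXNIP. With the markers so far apart between the groups, GSDMD and TXNIP had to come out lower here without overlap. Their p of 0.1 was thus fixed by the scale and shows nothing further. In the sum, LAPTM5 held 45.96 of 116.4 FPKM in the NC mean and 257.9 of 1643 FPKM in the HFCF mean. C1QC held 16.1 and 460.9 FPKM. The position of a gene on this scale depends on the markers chosen, whose own log2 fold changes ran from 1.32 (MRC1) to 5.13 (AIF1). The members' log2 fold changes, up to 4.93, lay within or below that range. The part that macrophage number had in the differences was not tested.

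**Figure D2:**
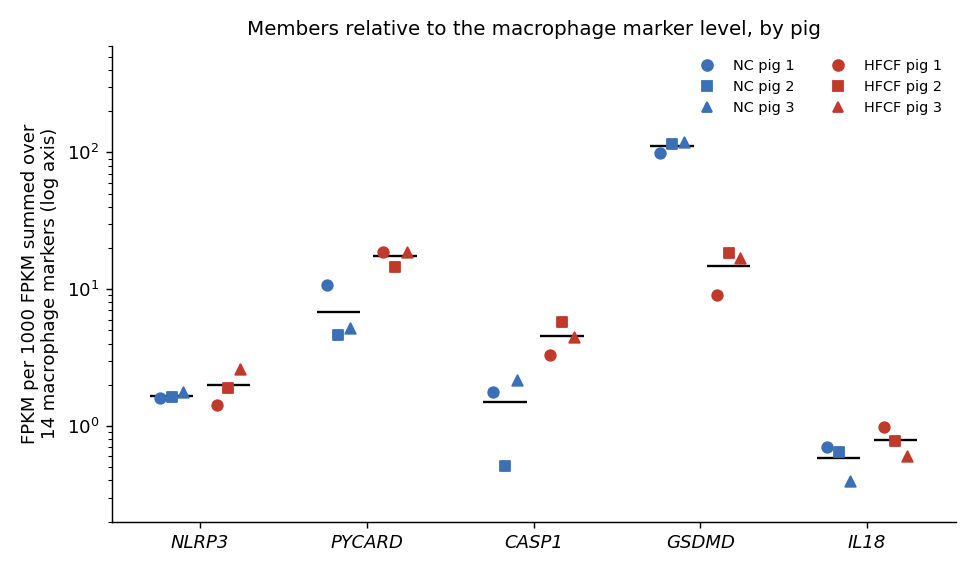
FPKM of 5 members per 1000 FPKM summed over 14 macrophage markers, on a log axis, in each NC (blue) and HFCF (red) pig, with a black bar at the group mean (n = 3). NLRP3 and IL18 overlap between the groups, PYCARD and CASP1 are higher in every HFCF pig (without a pseudocount), and GSDMD is lower in every HFCF pig.

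On the mean of the log2 marker values instead of their sum, the HFCF minus NC difference was -0.02 for NLRP3, 1.58 for PYCARD, 1.32 for CASP1, -0.42 for IL18, -2.66 for GSDMD, -2.75 for IL1A and -3.77 for TXNIP. These differences depended on the pseudocount. With a pseudocount of 1 they were -1.27 for NLRP3, 0.95 for PYCARD, -0.28 for CASP1 and -1.89 for IL18, and with 0.01 they were 0.39, 1.66, 1.93 and 0.51. The sign for NLRP3, CASP1 and IL18 was thus not settled on this scale.

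The other genes of the pathway were read from 5 lists with 108 names, of which 79 were found and 65 rows tested. Of these 65 rows, 22 were called higher and 1 lower in the HFCF group, 33.8% and 1.54% beside the 22.8% and 6.16% of all tested genes. Their median log2 fold change was 0.54. Without the first NC pig, 13 were called higher and 0 lower, and without the first or the last HFCF pig 0 were called lower. NLRP3, PYCARD, CASP1 and IL18, at 2.94 or more, lay well above that median. Among the 65 rows, both GZMA rows, PTPN22 and IL18RAP had NC means under 0.1 FPKM and passed the filter only through the HFCF pigs. They could hardly have been called lower, and 1 GZMA row is among those called higher. IL18R1 passed only through the NC pigs and could hardly have been called higher.

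**Figure D3:**
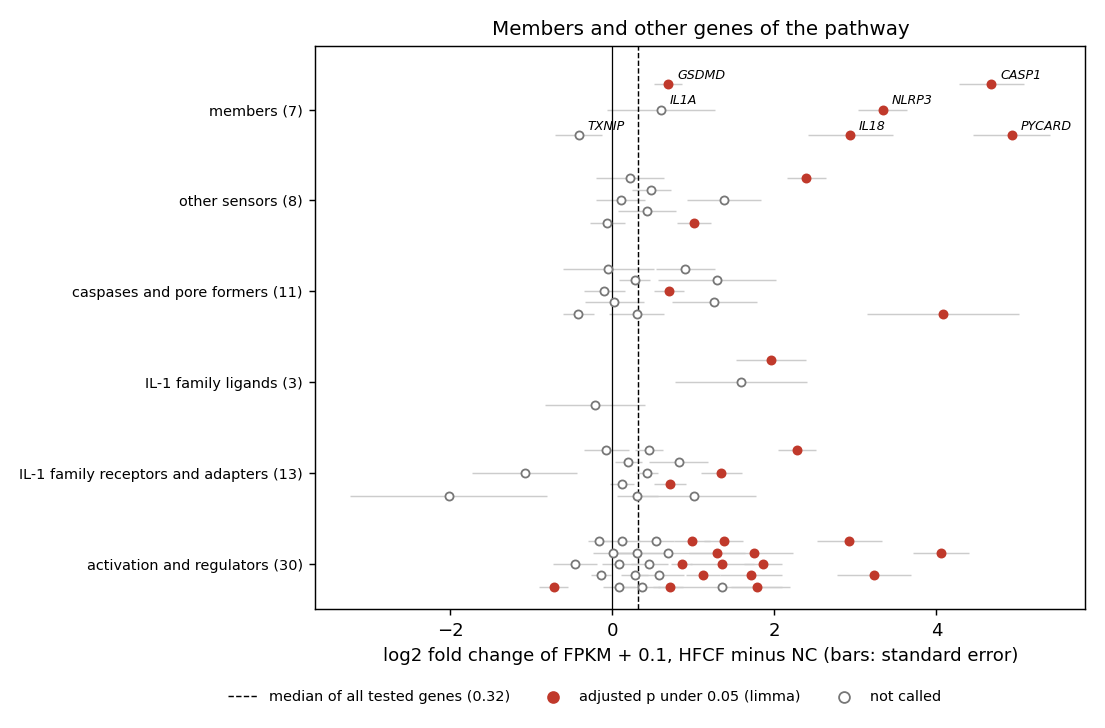
Log2 fold change of FPKM + 0.1 (HFCF minus NC) with its standard error for the 7 members and the 65 tested rows of 5 lists, 1 point per row, filled red where the adjusted p was under 0.05 and open grey otherwise. The dashed line marks the median of all tested genes, 0.32. The members NLRP3, PYCARD, CASP1 and IL18 lie to the right, at 2.94 or more, while most other points lie between -1 and 2.

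Among the other sensors, 8 of 15 rows found passed the filter and 2 were called higher (25%, beside 22.8% of all tested genes). CIITA, the transactivator of MHC class II genes and no inflammasome sensor, rose from 0.922 ± 0.116 to 5.34 ± 1.23 FPKM (SD, n = 3 each). The log2 fold change was 2.39 (limma adjusted p = 0.00138). DPP8, a peptidase that restrains NLRP1 and CARD8, rose from 2.33 ± 0.45 to 4.73 ± 0.17 FPKM, or 1.01 on the log2 scale (limma adjusted p = 0.0131, 0.0101 to 0.0818 over 15 alternatives), and was not called with quantile normalization. The names NLRP1, AIM2, MEFV and CARD8 were not found. A row outside the lists, noticed after its values were seen and described in the file as similar to NLRP1a (ENSSSCG00000027790), had 0.772, 0.981 and 0.752 FPKM in the NC pigs and 5.44, 2.79 and 1.72 FPKM in the HFCF pigs. Its log2 fold change was 1.73 (limma adjusted p = 0.0214), and the adjusted p ranged from 0.0141 to 0.0757 over 15 alternatives.

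Among other caspases, gasdermins and proteases, 2 of 11 tested rows were called higher (18.2%, beside 22.8% of all tested genes). CASP6 differed by 0.70 on the log2 scale (limma adjusted p = 0.0299), called in 6 of 15 alternatives, with adjusted p between 0.0229 and 0.415. GZMA, a granzyme of cytotoxic lymphocytes that cuts gasdermin B, had 0, 0.0628 and 0.124 FPKM in the NC pigs and 12.8, 1.05 and 1.10 FPKM in the HFCF pigs. Its limma adjusted p was 0.0191, with a range of 0.00956 to 0.0895 over 15 alternatives, and the call was lost with a pseudocount of 1 and without the first or second NC pig. Its log2 fold change was 4.09, and 2.93 without the first HFCF pig. With an NC mean of 0.062 FPKM, this row passed the filter only through the HFCF pigs and could hardly have been called lower. Another row of the same name was not called, and reads may be divided between them. CASP8, which can stand in for caspase-1, had 0.784, 1.36 and 2.18 FPKM in the NC pigs and 5.69, 4.03 and 1.59 FPKM in the HFCF pigs, and was not called (adjusted p = 0.116, limma, 0.0349 to 0.319 over 15 alternatives). Among these 15 it was called when the last HFCF pig was left out, and it also passed the thresholds of the study (unadjusted p = 0.0485 by limma, ratio of means 2.62). The gasdermins other than GSDMD and GSDME were at or under 0.0549 FPKM in every pig, and GSDME, named after its values were seen, differed by -0.10 on the log2 scale (limma adjusted p = 0.798). Caspase-13 (ENSSSCG00000014997), an inflammatory caspase of hoofed mammals that was outside the lists and noticed after its values were seen, had 4.62, 4.47 and 5.30 FPKM in the NC pigs and 21.7, 11.4 and 12.2 FPKM in the HFCF pigs. Its log2 fold change was 1.57 (limma adjusted p = 0.00672), and it was called in all 15 alternatives.

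Among the ligands, IL1B, the main cytokine product of the complex, was found only through the description of an unnamed row (ENSSSCG00000039214). It had 0.310, 0.501 and 0.217 FPKM in the NC pigs and 5.04, 0.590 and 0.501 FPKM in the HFCF pigs. Only the first HFCF pig stood clearly above the chow-fed pigs. The log2 fold change was 1.59 (SE 0.82, limma adjusted p = 0.184) and 0.59 without that pig (adjusted p = 0.307, limma, 0.113 to 0.361 over 15 alternatives). The pig has a second IL1B gene in RefSeq, and reads shared between the copies may have been divided. IL33, an alarmin of stromal and endothelial cells, rose from 1.78 ± 0.72 to 7.35 ± 3.80 FPKM (SD, n = 3 each), or 1.95 on the log2 scale (limma adjusted p = 0.0167), and was called in all 15 alternatives.

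IL18BP, the soluble decoy that binds interleukin-18, had 3.46, 6.37 and 4.13 FPKM in the NC pigs and 3.93, 9.66 and 1.505 FPKM in the HFCF pigs. It was not called (limma adjusted p = 0.821). The log2 ratio of IL18BP to IL18 was 4.30, 5.23 and 4.84 on chow and 0.52, 3.32 and 1.10 on the HFCF diet. The difference was -3.15, with p = 0.1 in an exact two-sided permutation test, the smallest p that 3 pigs against 3 allow. It was -1.20 (exact permutation p = 0.3) with a pseudocount of 1 and -4.17 with 0.01, and -3.98 to -2.58 with 1 pig left out. Decoy RNA thus remained above IL18 RNA in every pig, and with a pseudocount of 0.1 the margin was smaller in all 3 HFCF pigs. IL18BP was not called, and IL18 passed the filter only through the HFCF pigs. The ratio and its p thus largely repeat the IL18 difference and are no separate result.

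The signalling receptor IL1R1 had 17.6, 17.7 and 14.5 FPKM in the NC pigs and 17.4, 19.4 and 17.1 FPKM in the HFCF pigs, or 0.12 on the log2 scale (limma adjusted p = 0.584), a difference that turned negative under each of the 3 scalings. It was named after its values were seen. Among 13 tested receptor and adapter rows, 3 were called higher (23.1%, beside 22.8% of all tested genes), namely IRAK2, IRAK4 and MYD88. IRAK2 rose from 2.19 ± 0.35 to 11.2 ± 2.96 FPKM (SD, n = 3 each), or 2.28 on the log2 scale (limma adjusted p = 0.00159). IRAK4 differed by 1.35 on the log2 scale (limma adjusted p = 0.00996), and its call was lost with quantile normalization (adjusted p from 0.00978 to 0.062 over 15 alternatives, limma). MYD88 differed by 0.71 on the log2 scale (limma adjusted p = 0.0373), called in 4 of 15 alternatives, with adjusted p between 0.0329 and 0.228.

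Of the 30 activation and regulator genes, 14 were called higher and 1 lower (46.7% and 3.33%, beside 22.8% and 6.16% of all tested genes). CD14, among those called higher, is also one of the macrophage markers used above. BTK and SYK, kinases of myeloid and B cells reported to act on ASC and NLRP3, rose the most. BTK had 0.428, 0.473 and 0.558 FPKM in the NC pigs and 16.0, 8.16 and 6.75 FPKM in the HFCF pigs, or 4.05 on the log2 scale (limma adjusted p = 0.000903). SYK had a log2 fold change of 3.23 and TLR4, a receptor that primes NLRP3 transcription, of 2.93 (adjusted p = 0.00396 and 0.00338, limma). The ATP-gated channels differed in level. P2RX4 rose from 4.65 ± 0.77 to 17.4 ± 4.75 FPKM (log2 fold change 1.86, adjusted p = 0.00281, limma). P2RX7, the channel best known for triggering NLRP3, had 0.311, 0.519 and 0.256 FPKM in the NC pigs and 2.94, 0.960 and 0.951 FPKM in the HFCF pigs. Its log2 fold change was 1.74 (limma adjusted p = 0.0361), but it was called in only 3 of 14 alternatives, with adjusted p between 0.0341 and 0.11 (limma). NEK7, the kinase that NLRP3 needs to assemble, was abundant in both groups, at 16.7, 19.6 and 32.1 FPKM against 20.8, 21.5 and 23.9 FPKM. Its log2 fold change was 0.01 (limma adjusted p = 0.987) and turned negative under each of the 3 scalings.

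Genes tied to TXNIP were looked at after their values were seen. TXN, the thioredoxin that TXNIP binds, had 22.5, 24.2 and 20.3 FPKM in the NC pigs and 42.4, 40.0 and 38.9 FPKM in the HFCF pigs. The groups were tight and apart, with a log2 fold change of 0.86 (SE 0.13, limma adjusted p = 0.00519). ARRDC4, an arrestin-like paralogue of TXNIP induced by the same glucose-sensing factors, had 2.59, 3.45 and 3.29 FPKM against 11.2, 6.99 and 6.98 FPKM, or 1.38 on the log2 scale (limma adjusted p = 0.0079). ARRDC3 was not called (log2 fold change 0.58, adjusted p = 0.19, limma). TXN and ARRDC4 were called in all 15 alternatives. MAVS, a mitochondrial adapter of RNA sensing that was also named after its values were seen, was the 1 gene called lower, from 17.6 ± 3.21 to 10.6 ± 1.22 FPKM (log2 fold change -0.72, adjusted p = 0.0246, limma), in 10 of 15 alternatives. That call was lost with a replicate block and without the first or the last pig of either group (limma adjusted p from 0.00718 to 0.0613 over the alternatives).

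Members differed in how far the first HFCF pig, the one with the high summed red blood cell and neutrophil markers, stood above the other HFCF pigs. Its FPKM was 1.59 times the mean of the others for NLRP3, 1.58 for CASP1, 1.28 for GSDMD and 0.798 for TXNIP. It was 2.79 for PYCARD and 3.55 for IL18, beside 2.49 for the summed macrophage markers. IL1A, at 7.38 on values near the limit of detection, and IL1B, at 9.23, were nearer to the summed neutrophil markers, at 10.9. Such ratios were not particular to neutrophil markers. Some lymphocyte and plasma cell markers had them too, such as CD3D (8.62), CD3E (5.77) and MZB1 (16.5). Others, such as NKG7 (2.06), CD2 (2.97) and CD79A (1.09), were lower. Without this pig the log2 fold changes were 3.12 for NLRP3, 4.44 for PYCARD, 4.45 for CASP1 and 2.36 for IL18. Each kept its call, while GSDMD did not (0.57, adjusted p = 0.0514, limma). Of the 10 neutrophil marker rows, S100A8, S100A9, MPO and CTSG were listed at 0 in all 3 NC pigs. The other rows were detected there, among them S100A12 at 0.0939 to 2.02 FPKM and ELANE at 0.797 to 1.299 FPKM, and PRTN3 and AZU1 had log2 fold changes of -0.55 and -0.50. The part of blood cells in these values was not tested.

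**Figure D4:**
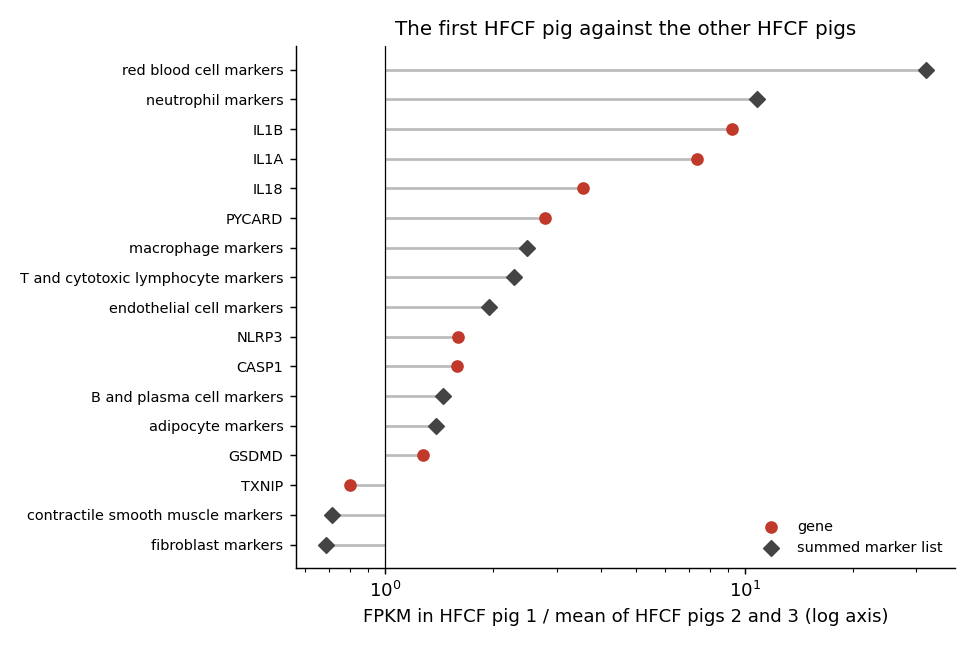
FPKM in the first HFCF pig divided by the mean of the other HFCF pigs, on a log axis, for the 7 members and IL1B (red circles) and for the summed markers of 9 cell types (grey diamonds). Among the summed lists drawn, IL1B (9.23) and IL1A (7.38) lie next to the neutrophil markers (10.9), whereas NLRP3 (1.59) and CASP1 (1.58) lie below the macrophage markers (2.49). Single markers are not drawn.

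Likeness between genes was described by the mean absolute difference of centred log2(FPKM + 0.1) over the 6 pigs, among 12094 tested genes with a symbol of their own. The nearest genes were AIF1 (0.247) and CX3CR1 (0.319) for PYCARD, both expressed by macrophages, and SLC27A6 (0.254) and C1QC (0.255) for CASP1. AIF1 and C1QC are among the 14 macrophage markers used above. For NLRP3 they were CALCR (0.104) and PRR33 (0.148), for IL18 TRPV2 (0.118) and FOLR1 (0.127), and for GSDMD YPEL3 (0.0387) and NFATC3 (0.0471). TXNIP was nearest to SNORA75 (0.0892) and ALDH6A1 (0.0957), and IL1A to DACH1 (0.113) and COBLL1 (0.215). All points share the same 6 libraries, so this is a description of pattern only.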

How the data were processed

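Abdominal aorta mRNA of 3 NC and 3 HFCF pigs was sequenced by the authors as paired-end reads. The submitters' processing notes name cutadapt 1.9, FastQC and HISAT2, and the methods add StringTie. The authors deposited FPKM values for 30477 genes, and 0.0001 FPKM was read as 0. The genome build named in the methods differs from that of the reference gene table, and coordinates are left out. Read depths are not given in the sources used here. Steps between low FPKM values gave relative depths of 1.00 to 1.37. The precision of a value was taken from the spread among pigs.

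Values were analysed as log2(FPKM + 0.1) for 15384 genes with a mean of at least 0.1 FPKM, with limma 3.58.1 in R 4.3.3 (diet as the only factor, eBayes with trend, Benjamini-Hochberg adjustment over all tested genes, threshold 0.05). The script was tested on simulated data. Rows were matched by gene name, and 13 unnamed rows by the description in the file. Members and lists were chosen with earlier results of these data known. All members were named, with up to 4 called genes of each list with the largest change, and IL1B, IL18BP, CASP8, NEK7 and P2RX7. Other genes are marked as noticed later. The planned ratios of IL1RN to IL1A and IL1B were not computed, as IL1RN had no row. Alternatives were other pseudocounts, filters and scalings, eBayes without trend, a replicate block, each pig left out, and the fold change and p thresholds of the study. The comparison with macrophage markers by their sum was added after the values were seen. GO and KEGG columns were not used here.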

Additional observations from a re-analysis of the deposited data

How the results depend on the processing

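The count of members called higher was 4 or 5 in every alternative run, the lost one being GSDMD, except with a mean of at least 1 FPKM, where IL18 was not tested; 0 members were called lower throughout. For the other pathway genes, 22 were called higher and 1 lower. Quantile normalization gave 13 higher and 3 lower, median-ratio scaling 4 lower, the thresholds of the study 0 lower, and leaving out 1 pig in turn 13 (without the first NC pig) to 21 higher and 0 to 1 lower. Without the last NC pig the gene called lower was IL1RL1 and not MAVS (log2 fold change -3.56, limma adjusted p = 0.00768). IL1RL1, named after its values were seen, had 23.9, 35.8 and 1.09 FPKM in the NC pigs and 4.37, 1.65 and 1.87 FPKM in the HFCF pigs. With all pigs it was not called (-2.02, limma adjusted p = 0.2495). The last NC pig also had the lowest adipocyte marker sum, 37.97 FPKM beside 192.4 and 301.3 FPKM in the other NC pigs. Whether IL1RL1 followed the fat in the samples was not tested. With the replicate number as a block, 4 members and 15 other genes were called higher and 0 lower. Same-numbered pigs did not deviate together (correlations of deviations 0.0206, -0.0795 and -0.0724), so the numbers were not read as pairs. Some genes that were never called changed sign. IL1R1 gave -0.24, -0.054 and -0.14 and NEK7 -0.35, -0.16 and -0.25 after median-ratio scaling, quantile normalization and rescaling to TPM. With 1 pig left out, NEK7 ranged from -0.19 to 0.28 and IL18BP from -0.86 to 0.45. Relative to macrophage markers, a pseudocount of 1 moved the difference of CASP1 from 1.32 to -0.275, of NLRP3 from -0.018 to -1.27, of PYCARD from 1.58 to 0.95 and of IL18 from -0.42 to -1.89, and 0.01 moved IL18 to 0.51 and IL1A from -2.75 to -1.85. Over all tested genes, 3505 were called higher and 948 lower at a median of 0.32. Median-ratio scaling gave 2035 and 1969, quantile normalization 1748 and 1782 and rescaling to TPM 2146 and 1539, at medians of -0.003, -0.07 and 0.07. FPKM summed over all rows was 272200 to 287100 in the NC pigs and 330200 to 338700 in the HFCF pigs. The cause of these changes was not tested. IL1A could not be tested without the first HFCF pig or with a mean of at least 1 FPKM. Unknown depth leaves the counting error of genes near 0.1 FPKM unmeasured.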
